A study of Mus musculus with 16 samples.

Results

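Transcripts listed at Stard4, Msmo1 and Sc5d, 3 mouse genes of cholesterol transport and synthesis, were followed across 4 diet groups of liver RNA libraries. A listed transcript was a member when its interval overlapped the body of one of these genes in GENCODE M21 (GRCm38). This gave 4 of the 51024 listed transcripts, with 2 at Stard4, 1 at Msmo1 and 1 at Sc5d. The livers came from C57BL/6J mice labelled as postnatal day 21, with 4 libraries in each group. One group received ordinary feed and another high-fat feed alone. The remaining groups received high-fat feed with resveratrol, a plant polyphenol, at 100 mg/kg per day, or with metformin, a drug that lowers blood glucose, at 200 mg/kg per day. Both drugs were given by gavage, and neither was given on ordinary feed. The labels give no sex, cage, litter or feeding time, and do not say whether the control groups were gavaged. The titles of the high-fat group share 1 prefix while each other group has more than 1, so a cage or litter marked by that prefix cannot be told apart from high-fat feed alone.

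Liver cells make cholesterol from acetyl units through mevalonate, squalene and a chain of sterol intermediates. When sterols in the endoplasmic reticulum are low, the membrane-bound factor SREBP-2 is released, moves to the nucleus and switches on the genes of this chain and of cholesterol uptake. The Insig proteins hold SREBP-2 and its escort Scap back when sterols are plentiful. Msmo1 (methylsterol monooxygenase) strips methyl groups from early sterol intermediates, Sc5d (lathosterol oxidase) adds a double bond near the end of the chain, and Stard4 is a soluble carrier that moves cholesterol between membranes. All 3 are known as targets of sterol-regulated transcription.

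The start regions of the genes are shown first because sterol-regulated promoters often pair a site for SREBP-2 with a box for the factor NF-Y. RefSeq start regions (250 bases before to 50 after the annotated start, GRCm38.p6) were at hand for Msmo1 and Sc5d. Both strands were searched for the NF-Y box CCAAT, for the sterol regulatory element core TCACNCCAC and for the E-box CACGTG, none of which overlapped another here. Each line gives the minus strand, on which both genes lie, 5′ to 3′, with the match in capitals, for Msmo1 at chr8:64733724-64733748, chr8:64733660-64733684 and chr8:64733619-64733643, and for Sc5d at chr9:42264310-42264334 and chr9:42264383-42264408.
Msmo1 NF-Y box, 160 bases upstream: atccgcgcagCCAATgactggcgcc
Msmo1 NF-Y box, 96 bases upstream: ttagcacggaCCAATcactgcacgg
Msmo1 NF-Y box, 55 bases upstream: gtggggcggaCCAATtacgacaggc
Sc5d NF-Y box on the opposite strand, 24 bases upstream: ccggctgctgATTGGccggctgcct
Sc5d E-box, 98 bases upstream: acgcggcgacCACGTGaccgccgcga

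The Msmo1 region held 3 NF-Y boxes and the Sc5d region 1. Distances are from the RefSeq start. The GENCODE body of Msmo1 reaches to 64733792, so its 3 boxes lie within that body. Of the 32851 start regions, 37.4% held at least 1 NF-Y box, and how many held 3 was not worked out. The E-box of Sc5d occurred in 7.15% of all regions. The sterol element core, found in 1.24% of all regions, was in neither window, which says only that these letters are not there. GC content was 70.7% for Msmo1 and 68.3% for Sc5d, against a median of 52.7% over all regions.

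The transcripts lie in different parts of their genes. NONMMUT031869.2 (chromosome 18, 33199357 to 33202444, 3088 bases) lies wholly in the 3′ untranslated exon of Stard4 (33199355 to 33213862, minus strand) and reaches to within 2 bases of the gene's 3′ end. NONMMUT031870.2 (33201507 to 33205798) is a transcript of 2695 bases in several parts, whose interval runs from that exon into coding exons and overlaps the first transcript by 938 bases. NONMMUT068756.2 (chromosome 9, 42251595 to 42254436, 2842 bases) lies wholly in the 3′ untranslated exon of Sc5d (42251595 to 42264256, minus strand) and shares its 3′ end. NONMMUT065807.2 (chromosome 8, 64729899 to 64731289, 1391 bases) lies in the first part of Msmo1 (64718139 to 64733792, minus strand). Only 288 of its bases (20.7%) fall in an exon, an untranslated one of an alternative Msmo1 transcript, and the rest is intron. Whether reads were counted by strand is not given, so reads of these transcripts and of the coding genes around them cannot be told apart. A gene symbol below therefore names a position.

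**Figure D1:**
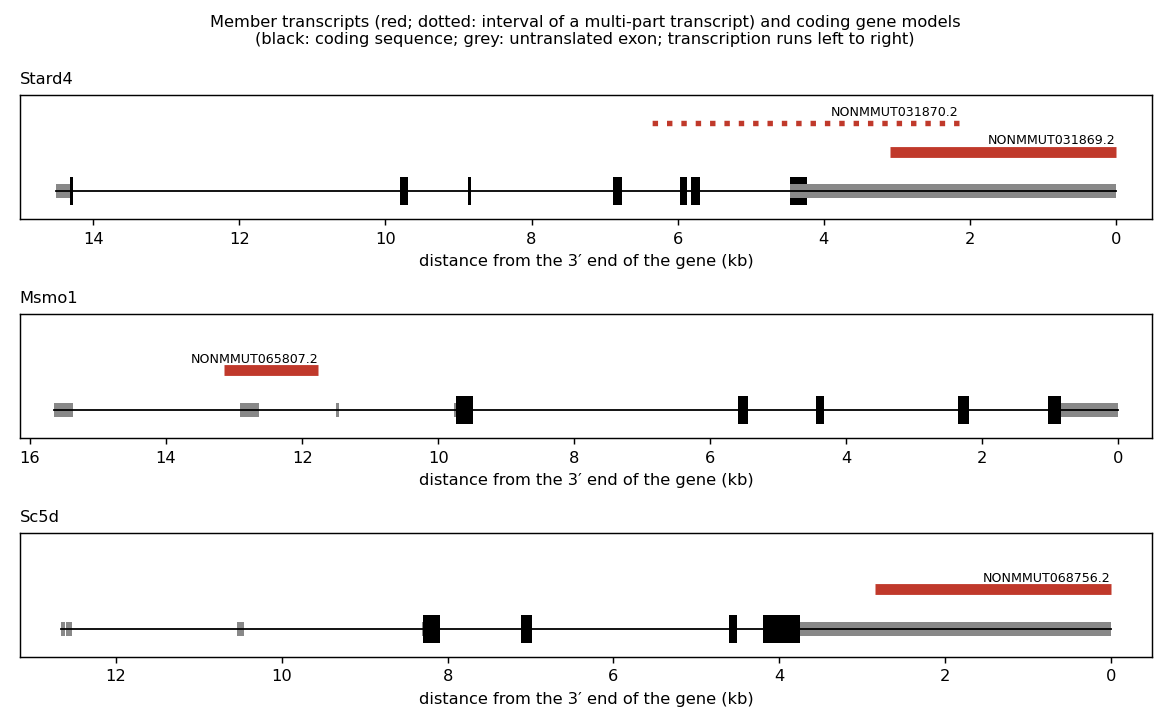
Member transcripts (red) drawn over the coding gene models of Stard4, Msmo1 and Sc5d, by distance from the 3′ end of the gene in kb. The main Stard4 transcript and the Sc5d transcript sit in the last untranslated exon, and the Msmo1 transcript sits mostly in an intron near the gene's start.

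Levels are in FPKM as deposited, that is, read numbers per kilobase of transcript and per unit of library size. Libraries held 17249300 to 31113700 reads as worked out from the smallest steps of the values, of which 15.7% to 23.6% fell on the listed transcripts, and 1 read on a transcript of 1 kb was worth 0.0321 to 0.0580 FPKM. High-fat library 4 (titled H7-5L) stood apart. Its median ratio to the average library was 0.691 against 0.885 to 1.15 in the other 15, and 4274 features reached 1 FPKM there against 5149 to 6492. Tests that use high-fat libraries are therefore given with and without it. Differences were tested with limma on log2(FPKM + 1) in 1 fit of all 16 libraries over the 7413 features with at least 1 FPKM in at least 4 libraries. Calls were made at an adjusted p below 0.05, adjusted over all of these. Of the 4 members 3 passed this filter, and NONMMUT031870.2, which reached 1 FPKM in no library, did not. Log2 changes are on the log2(FPKM + 1) scale and understate changes of low transcripts. As these are whole livers, fewer cells of a type and less RNA per cell cannot be told apart.

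The main Stard4 transcript was the member with the clearest difference between diets. On ordinary feed NONMMUT031869.2 stood at 7.90, 7.005, 8.07 and 10.4 FPKM. On high-fat feed it stood at 25.7, 20.5, 24.4 and 17.8 FPKM. Every high-fat library lay above every ordinary-feed library, and the lowest of the high-fat values was that of high-fat library 4. Groups failed to overlap for 20.9% of all features in that comparison, and for 26.4% without high-fat library 4. Between 421 and 647 reads stood behind each ordinary-feed value and between 1204 and 1973 behind each high-fat value. The means were 8.35 ± 1.45 and 22.1 ± 3.65 FPKM (SD, n = 4 each), a ratio of 2.65. The log2 change was 1.31 (SE 0.21, limma adjusted p = 0.00301), while the median of all features tested was -0.16. Without high-fat library 4 the change was 1.40 (SE 0.21, limma adjusted p = 0.00334).

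With the drugs, the same transcript stood at different levels. With resveratrol it was at 13.4, 15.7, 12.3 and 20.3 FPKM (mean 15.4 ± 3.54, SD, n = 4). The first 3 of these libraries lay between the ordinary-feed and high-fat ranges, and the highest overlapped the high-fat values. With metformin it was at 23.3, 29.5, 16.5 and 19.98 FPKM (mean 22.3 ± 5.54, SD, n = 4), a range that spans that of high-fat feed alone. Against high fat alone, resveratrol gave a log2 change of -0.50 (95% interval -0.94 to -0.059, limma adjusted p = 0.265) that did not pass. Leaving out high-fat library 4, the groups did not overlap, as for 10.8% of all features, and the change was -0.60 (95% interval -1.04 to -0.15, limma adjusted p = 0.340), again not called. Metformin against high fat gave -0.0039 (95% interval -0.45 to 0.44, limma adjusted p = 0.998), and -0.10 (95% interval -0.54 to 0.34) without high-fat library 4. The level with metformin thus did not differ from that on high fat alone beyond the spread, within these intervals.

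Against ordinary feed, which shares its libraries with the comparison above, the Stard4 transcript was called with metformin. The log2 change was 1.30 (SE 0.21, limma adjusted p = 0.0191), and all 4 metformin libraries lay above all 4 on ordinary feed. Groups did not overlap for 13.4% of all features there. Leaving out ordinary-feed library 2 or 3, or metformin library 1, 2 or 4, ended this call, with limma adjusted p from 0.0185 to 0.0777 as each library was left out in turn. With resveratrol the 4 libraries also lay above ordinary feed (groups did not overlap for 9.93% of all features), at a mean ratio of 1.85, but the change of 0.80 (SE 0.21, limma adjusted p = 0.109) did not pass. Resveratrol and metformin differed by -0.50 (95% interval -0.94 to -0.055, limma adjusted p = 0.765), which did not pass. In order of mean FPKM the groups were ordinary feed, resveratrol, high fat (22.1) and metformin (22.3). Without high-fat library 4 the high-fat mean (23.6) lay above that with metformin. Of the 6 pairs only high fat and metformin against ordinary feed passed the threshold.

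**Figure D2:**
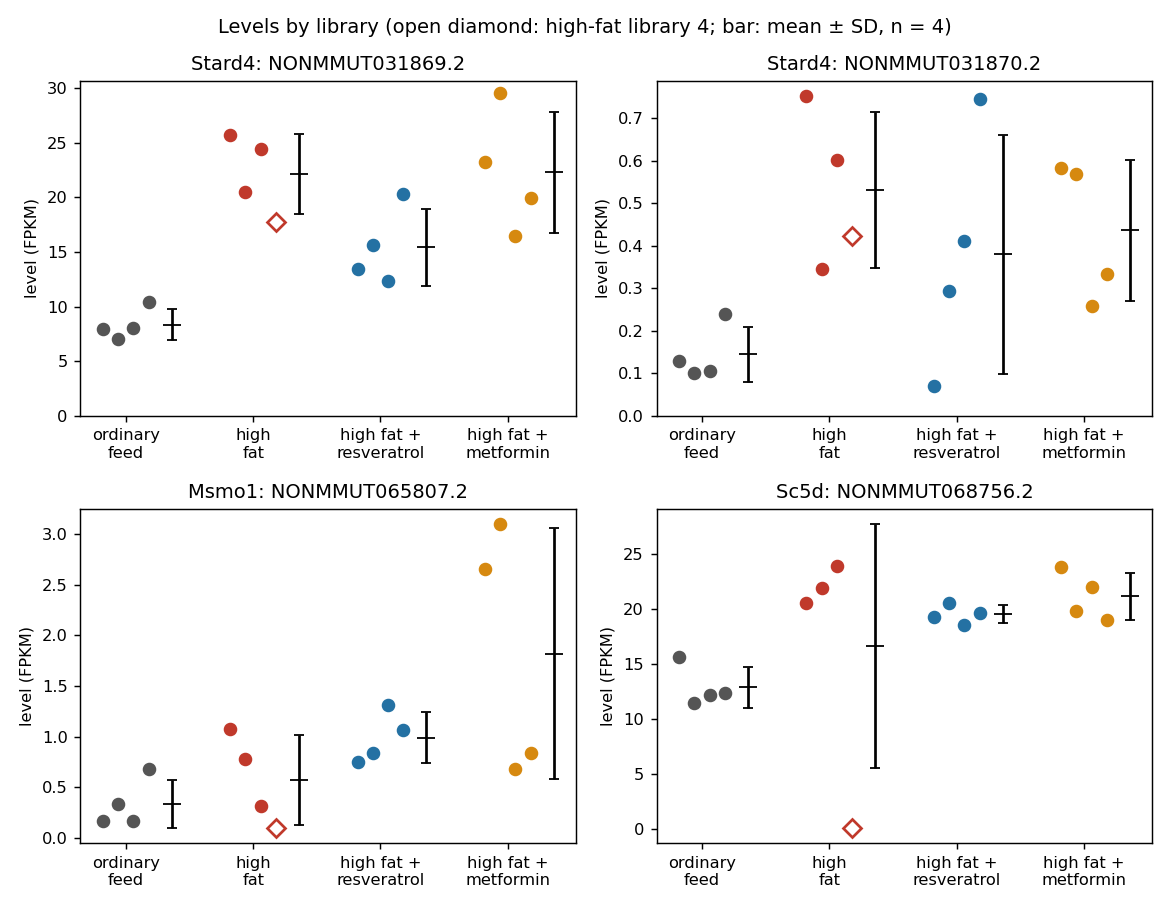
FPKM of each member transcript (4 panels) in each library, by diet group, with the group mean ± SD (n = 4). High-fat library 4 is the open diamond. It is the lowest of its group for the main Stard4 transcript, Msmo1 and Sc5d (0.0641 FPKM), and lies within its group for the second Stard4 transcript.

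The second Stard4 transcript, NONMMUT031870.2, was far lower and rested on few reads. It stood at 0.129, 0.101, 0.106 and 0.240 FPKM on ordinary feed, with 6 to 13 reads each. On high-fat feed it stood at 0.753, 0.346, 0.601 and 0.423 FPKM, with 25 to 46 reads each. These groups did not overlap, and the means were 0.144 ± 0.0649 and 0.531 ± 0.183 FPKM (SD, n = 4 each). Groups did not overlap for 20.9% of the features tested, but this transcript is not among those, and the share for such low transcripts was not worked out. An exact two-sided permutation test of the FPKM gave p = 0.0286, the smallest that 4 against 4 libraries allow, and 0.0857 after adjustment over the 6 comparisons. With high-fat library 4 left out the exact permutation p was 0.0571, and 0.171 after adjustment. The groups still did not overlap (as for 26.4% of the features tested), and this two-sided test gives no smaller p with 3 against 4 libraries. Metformin values ran from 0.257 to 0.584 FPKM, all above ordinary feed (exact permutation p = 0.0286, 0.0857 after adjustment). Groups did not overlap there for 13.4% of the features tested. Resveratrol values ran from 0.0701 to 0.745 FPKM and overlapped every other group. Across the 16 libraries its log2(FPKM + 1) values had a Pearson r of 0.83 with those of the main Stard4 transcript. The 2 transcripts share bases and libraries, so this is a description only.

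The Sc5d transcript gave 2 pictures, one with and one without a single library. On ordinary feed NONMMUT068756.2 stood at 15.6, 11.4, 12.2 and 12.3 FPKM. On high-fat feed it stood at 20.6, 21.9, 23.9 and 0.0641 FPKM, the last in high-fat library 4. That value rested on 4 reads, against 1324 to 1939 in the other 3 high-fat libraries. With resveratrol it stood at 19.2, 20.5, 18.6 and 19.7 FPKM, and with metformin at 23.8, 19.8, 22.0 and 19.0 FPKM. Outside high-fat library 4, every library on high-fat feed, with or without a drug, lay above every library on ordinary feed. Groups did not overlap with ordinary feed for 26.4% of all features (high fat without that library), 9.93% (resveratrol) and 13.4% (metformin). The share for these groups together was not worked out.

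With all 16 libraries no difference at Sc5d was called. High fat against ordinary feed gave -0.37 (SE 0.72, 95% interval -1.90 to 1.17, limma adjusted p = 0.751). The mean FPKM was higher on high fat (16.6 ± 11.1 against 12.9 ± 1.87, SD, n = 4 each), so the sign of the log2 change differed from that of the means. Because 1 fit shares the spread among groups, that library widened the standard error of every Sc5d comparison to 0.72. Without it the high-fat mean was 22.1 ± 1.67 FPKM (SD, n = 3), 1.72 times ordinary feed. The log2 change was then 0.74 (SE 0.13, limma adjusted p = 0.00705), with a median of all features of -0.089. Metformin against ordinary feed went from 0.68 (SE 0.72, limma adjusted p = 0.639) to a called 0.68 (SE 0.12, limma adjusted p = 0.0257). Resveratrol against ordinary feed gave 0.57 (SE 0.12, limma adjusted p = 0.0517) without that library and did not pass.

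Against high fat alone, neither drug was called at Sc5d. Leaving out high-fat library 4, all resveratrol libraries lay below the high-fat ones, though barely (at most 20.5 against at least 20.6 FPKM). Groups did not overlap there for 10.8% of all features. Without high-fat library 4 the change with resveratrol was -0.17 (95% interval -0.45 to 0.10, limma adjusted p = 0.650) and with metformin -0.064 (95% interval -0.34 to 0.21, limma adjusted p = 0.979). With it they were 0.94 (95% interval -0.60 to 2.47) and 1.05 (95% interval -0.49 to 2.58), neither called. The drugs differed from each other by -0.11 (95% interval -0.36 to 0.15, limma adjusted p = 0.803) without that library.

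**Figure D3:**
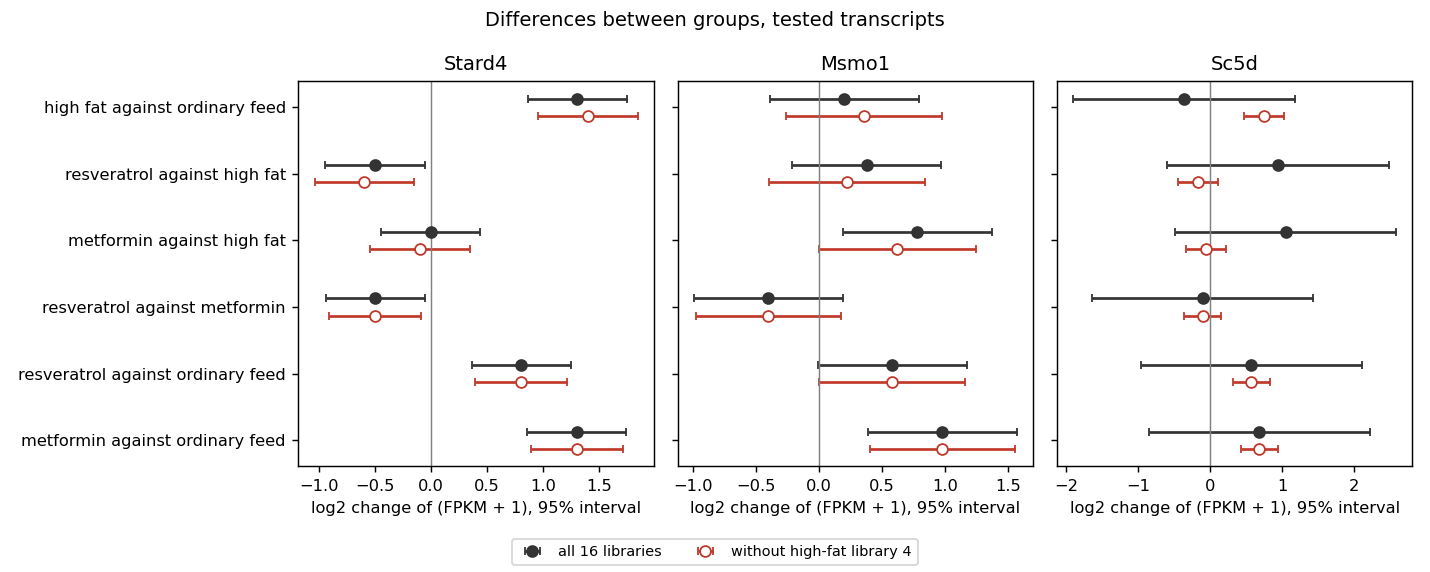
Log2 changes of (FPKM + 1) with 95% limma intervals for the 3 tested transcripts in 6 comparisons, with all 16 libraries (filled) and without high-fat library 4 (open). For Sc5d the interval narrows and the high-fat change goes from -0.37 to 0.74 without that library, while the Stard4 values shift little.

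The near absence of the Sc5d transcript from high-fat library 4 was shared by other transcripts. Of 475 features at 5 FPKM or more in each of the other 15 libraries, 21 (4.42%) were under 0.5 FPKM in high-fat library 4. In each of the other libraries the same count was 0 to 3. Of the 21, 20 were exonic in a coding gene, as the Sc5d transcript is, against 190 of the 475. They included transcripts in exons of Prox1, a liver transcription factor (0.0421 FPKM against 7.17 to 15.7), and of Larp4, an RNA-binding protein (0.0578 against 11.9 to 17.5), both named after their values were seen. The main Stard4 transcript, also exonic, was not among them. What part library quality had in these values was not tested.

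**Figure D4:**
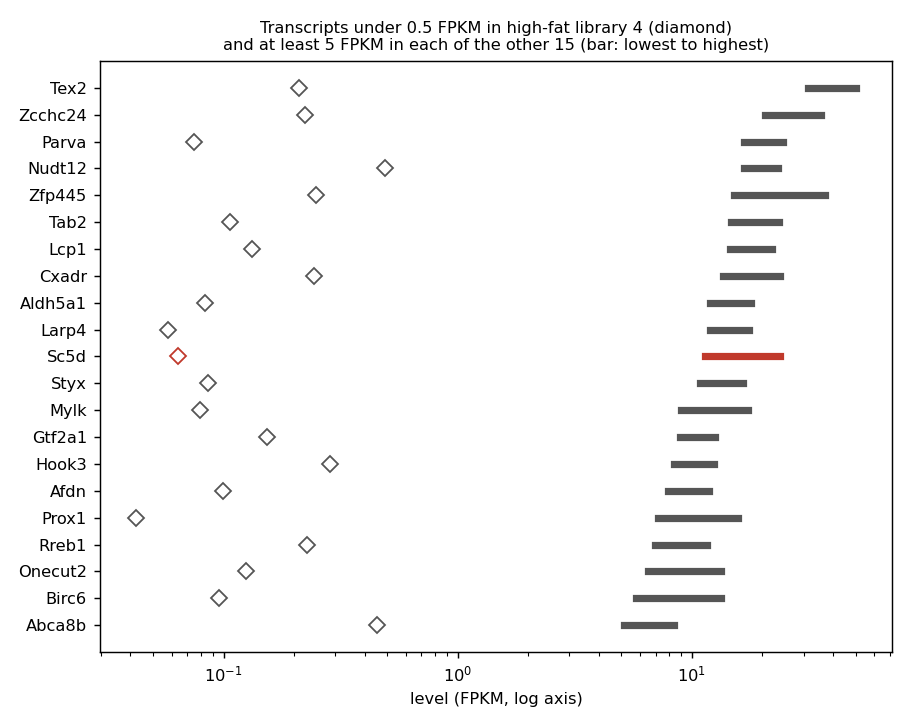
FPKM on a log axis of the 21 features under 0.5 FPKM in high-fat library 4 (diamonds) and at least 5 FPKM in each of the other 15 (bars, lowest to highest), named by the coding gene at their position. Sc5d, in red, is at 0.0641 FPKM against 11.4 to 23.9.

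A second tested transcript lay near Sc5d and was present in that library. NONMMUT132443.1 (chromosome 9, 42273894 to 42274557), 9.64 kb upstream of the Sc5d start, was the only other tested feature within 100 kb of any of the 3 genes. It stood at 2.27, 2.23, 1.00 and 0.598 FPKM on ordinary feed. On high-fat feed it stood at 3.26, 4.16, 3.89 and 2.68 FPKM, the last in high-fat library 4. These groups did not overlap, as for 20.9% of all features. The log2 change was 0.89 (SE 0.21, limma adjusted p = 0.0149), and 0.98 (SE 0.22, limma adjusted p = 0.0195) without that library. Of all features 2.83% were called higher in that comparison, and 2.47% without that library. With resveratrol its mean was 3.67 ± 0.281 and with metformin 2.84 ± 0.623 FPKM (SD, n = 4 each), and neither passed against ordinary feed or high fat.

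The Msmo1 transcript was low and varied widely within most groups. NONMMUT065807.2 stood at 0.167, 0.336, 0.171 and 0.678 FPKM on ordinary feed, with 4 to 19 reads each. On high-fat feed it stood at 1.08, 0.786, 0.315 and 0.0983 FPKM, the last in high-fat library 4 and from 3 reads. These groups overlapped over most of their range. With resveratrol it stood at 0.748, 0.840, 1.31 and 1.07 FPKM, and with metformin at 2.66, 3.10, 0.686 and 0.840 FPKM. All 8 libraries with a drug lay above all 4 on ordinary feed, though by little (the lowest at 0.686 against 0.678 FPKM). Groups did not overlap with ordinary feed for 9.93% of all features with resveratrol and 13.4% with metformin. At Msmo1, 2 of the metformin libraries lay above every other library of the series.

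None of the 6 comparisons was called at Msmo1. The transcript passed the filter with 5 libraries at 1 FPKM or more, none of them on ordinary feed. It was thus tested only through groups in which it was high, and the changes below are descriptions. Metformin against ordinary feed gave a log2 change of 0.98 (95% interval 0.39 to 1.57, limma adjusted p = 0.0854), and 0.98 (limma adjusted p = 0.0583) with high-fat library 4 left out of the shared spread. Metformin against high fat gave 0.78 (95% interval 0.19 to 1.37, limma adjusted p = 0.4997), and 0.62 (95% interval 0.00062 to 1.25, limma adjusted p = 0.653) without high-fat library 4. Resveratrol gave 0.38 (95% interval -0.21 to 0.97, limma adjusted p = 0.497) against high fat, 0.22 (95% interval -0.40 to 0.85) without that library, and 0.58 (limma adjusted p = 0.385) against ordinary feed. High fat against ordinary feed gave 0.20 (95% interval -0.39 to 0.79, limma adjusted p = 0.639), and 0.36 (95% interval -0.26 to 0.98) without that library. The drugs differed by -0.40 (95% interval -0.99 to 0.19, limma adjusted p = 0.805). With the 22 to 87 reads behind a metformin value, these intervals do not show that the groups are alike.

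Per length, the Sc5d and main Stard4 transcripts were of like level and the Msmo1 transcript much lower. The means of Sc5d, Stard4 and Msmo1 over the 16 libraries were 17.5, 17.1 and 0.930 FPKM, at ranks 216, 222 and 6472 of the 7413 features tested. Without high-fat library 4, Sc5d and the main Stard4 transcript had a Pearson r of 0.84 on the log2(FPKM + 1) scale over 15 libraries, against 0.17 over 16. For Stard4 and Msmo1 it was 0.67 over 15 libraries and 0.60 over 16, and for Sc5d and Msmo1 0.49 and 0.47. These points share libraries and diet groups, and the values are descriptions.

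The calls among the members are set here beside the shares over the whole table. Of the 3 tested, 1 was called higher on high-fat than on ordinary feed, where 14.6% of all features were called in either direction and 2.83% were called higher. Of the 1085 features called, 210 were higher and 875 lower, and with median-ratio scaling 447 were higher and 366 lower. With high-fat library 4 left out, 2 of 3 were called higher, against 2.47% of all features (8.16% in either direction). With metformin against ordinary feed 1 of 3 was called higher, against 0.0944% of all features (0.297% in either direction), and 2 of 3 against 0.863% (3.51%) without that library. No member was called by limma with resveratrol against high fat (background 0.0809%), metformin against high fat (0.027%), resveratrol against metformin (0%) or resveratrol against ordinary feed (0.283%), and in each of these 1 of the 3 had an unadjusted p under 0.05, as had 1200, 554, 471 and 979 of the 7413 features. Leaving out high-fat library 4, none was called there either, against 0.0135%, 0.121%, 0% and 0.513% of all features. In the last of these, 3 of 3 then had an unadjusted p under 0.05, Msmo1 among them, as had 1205 of all features. Msmo1 was also the member under that limit for metformin against high fat. It passed the filter through no ordinary-feed library, only through groups in which it was high, so its part in these counts is a description. The members were chosen with earlier results of these data known, so these shares are not independent support.

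Other genes of cholesterol handling had few listed transcripts. Of 84 genes in 4 lists, 53 had a listed transcript within the gene body and 27 had one that was tested, the most abundant of which stood for the gene. The symbol Faxdc2, counted in the synthesis list, matched no coding gene in GENCODE M21 and was not searched. In high fat against ordinary feed 1 of these features rose, 4 fell and 22 did not pass, with a median log2 change of 0.039 against -0.16 for all features. Of all features 2.83% were called higher and 11.8% lower there, so that the counts in the lists lay near these shares. When high-fat library 4 was left out, 3 rose and 2 fell (median 0.13, against -0.089), where 2.47% of all features were called higher and 5.69% lower. Stard4 was the riser with all 16 libraries, and Stard4, Sc5d and Osbpl8, an oxysterol-binding family member (0.61, SE 0.18, limma adjusted p = 0.0495), were the risers without that library. The Osbpl8 feature had 0.264 FPKM in high-fat library 4 against 8.21 to 9.94 in the other 3.

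Among synthesis genes 6 of 23 had a tested transcript and none was called with all 16 libraries (1 higher without high-fat library 4, Sc5d). Ebp, a sterol isomerase, gave 0.089 (SE 0.11; 0.083 without high-fat library 4), and Acat2, which joins acetyl units, 0.16 (SE 0.16; 0.11 without it). Neither of these limma changes passed, and both transcripts have several parts. Against ordinary feed, resveratrol gave 0.40 (SE 0.11, limma adjusted p = 0.117) at Ebp and 0.20 (SE 0.16, limma adjusted p = 0.658) at Acat2, neither called.

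Of 4 tested features of sterol-sensing genes 2 fell on high-fat feed, with or without high-fat library 4, against 11.8% and 5.69% of all features called lower. The exonic feature of Insig2 (NONMMUT002394.2, chromosome 1, 121304357 to 121305112), which retains the SREBP-2 complex in the endoplasmic reticulum, stood at 181, 196, 236 and 158 FPKM on ordinary feed. On high-fat feed it stood at 87.9, 106, 115 and 34.4 FPKM, all below ordinary feed and lowest in high-fat library 4. Groups did not overlap in that comparison for 20.9% of all features. The log2 change was -1.28 (SE 0.34, limma adjusted p = 0.0257), and -0.89 (SE 0.25, limma adjusted p = 0.0411) without that library. The call ended when ordinary-feed library 2 or 3 was left out (limma adjusted p = 0.0596 and 0.0656). It also ended without a filter (limma adjusted p = 0.107), with only these 2 groups fitted (0.0795), and when high-fat library 4 was left out under median-ratio scaling (-0.74, limma adjusted p = 0.0875). Insig2 with metformin was at 82.7 ± 17.0 FPKM and with resveratrol at 140 ± 45.5 FPKM (SD, n = 4 each). The metformin group was called lower than ordinary feed only with high-fat library 4 left out of the shared spread (-1.22, SE 0.23, limma adjusted p = 0.0285, against 0.0838 with it). The partly exonic feature of Ube2g2 (NONMMUT006300.2), a ubiquitin-conjugating enzyme of protein breakdown at the endoplasmic reticulum, went from 2.30 ± 0.0925 to 1.20 ± 0.484 FPKM (SD, n = 4 each; -0.61, SE 0.15, limma adjusted p = 0.0172). Without high-fat library 4 its change was -0.75 (SE 0.13, limma adjusted p = 0.00695). The call ended with median-ratio scaling (-0.41, limma adjusted p = 0.172), quantile normalization (-0.45, 0.127) and no filter (-0.61, 0.0828).

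Of 16 tested features of transport and storage genes, Stard4 rose, 2 fell and 13 did not pass. The features that fell were intronic. At Scarb1, the receptor that takes up cholesterol from high-density lipoprotein, the change was -0.75 (SE 0.22, limma adjusted p = 0.0374). At Lipa, the lysosomal cholesteryl ester hydrolase, it was -0.58 (SE 0.18, limma adjusted p = 0.0415). Both calls were lost without high-fat library 4 (limma adjusted p = 0.0855 and 0.111), and with median-ratio scaling (0.140 and 0.131). The Scarb1 call also ended when high-fat library 1 or 3, or library 2 or 3 on ordinary feed, was left out (limma adjusted p up to 0.105). The Lipa call ended when high-fat library 1 or 2, or any of libraries 1 to 3 on ordinary feed, was left out (limma adjusted p up to 0.102). In all, the Scarb1 call held in 5 of 15 alternatives and the Lipa call in 5 of 16. The partly exonic feature of Scp2, a sterol carrier, gave 1.12 (SE 0.44, limma adjusted p = 0.0986), did not pass, nor did it without high-fat library 4 (1.43, SE 0.44, limma adjusted p = 0.0592), and it is named after its value was seen. The single tested feature of the bile acid list, at Slc27a5, gave 0.15 (0.065 without that library) and did not pass. In the other 5 comparisons the Stard4 feature, with metformin against ordinary feed, was the single one of the 27 called with all 16 libraries. With high-fat library 4 left out of the shared spread, metformin against ordinary feed had 2 called higher, Stard4 and Sc5d, and 2 lower, Insig2 and Ube2g2 (-0.59, SE 0.12, limma adjusted p = 0.0327), where 0.863% of all features were called higher and 2.64% lower.

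**Figure D5:**
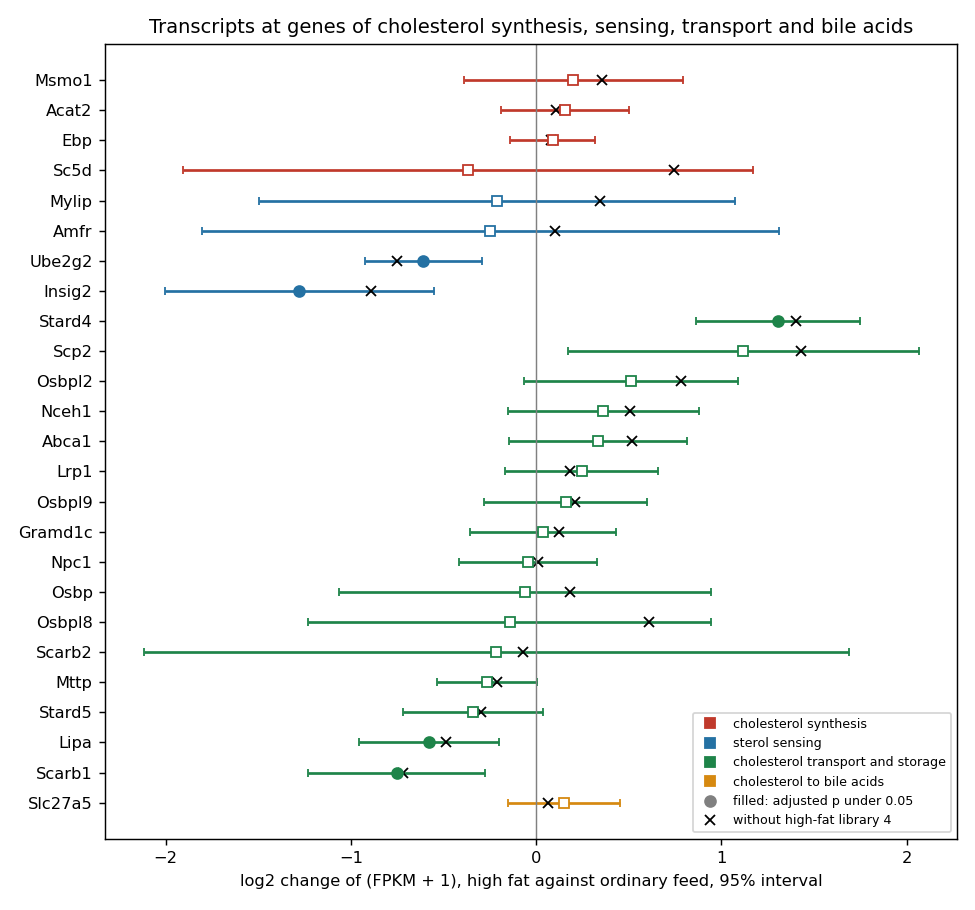
Log2 change of (FPKM + 1), high fat against ordinary feed, with 95% limma intervals for 25 of the 27 tested list features by list (filled where adjusted p was under 0.05), and the value without high-fat library 4 (crosses). Stard4 is the filled point to the right, and Insig2, Ube2g2, Scarb1 and Lipa are the filled points to the left.

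Features outside the 3 genes were ranked by Pearson r of log2(FPKM + 1) with each main member transcript. Over 16 libraries, the one most like the main Stard4 transcript was NONMMUT003114.2 (r = 0.92), an intergenic transcript on chromosome 1 (151138185 to 151143841) with means of 2.33, 20.4, 11.4 and 12.7 FPKM on ordinary feed, high fat, resveratrol and metformin. It was followed by intronic transcripts of Slc46a3 (r = 0.90), Camta1 (r = 0.89) and Gm20388 (r = 0.88). Over 15 libraries the first 3 were the same. The Sc5d transcript was matched over 16 libraries by exonic transcripts of Onecut2, Zcchc24, Epg5 and Cacul1 (r = 0.97 each). Those of Onecut2 and Zcchc24 were among the 21 features low in high-fat library 4. Those of Epg5 and Cacul1 were also low in that library, at 0.144 and 0.946 FPKM against at least 4.86 and 8.31 elsewhere. Over 15 libraries none of these remained, and intronic transcripts of Fbxl20 (r = 0.92) and Fam221b (r = 0.88) led, before an intergenic one near Gm4841 (r = 0.87) and an intronic one of Ghr (r = 0.85). For Msmo1 the same 4 features led in both settings, intronic transcripts of Dock4 (r = 0.85 over 16 libraries) and Plcb1 (r = 0.84), an intergenic one near Zfp825 (r = 0.85) and a partly exonic one of Brca2 (r = 0.83). These were picked as the highest over all 7413 tested features and are descriptions.

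Cell types could be checked by position only, since coding genes are not listed. Of 12 hepatocyte marker genes 5 had a tested transcript, whose summed level ran from 57.9 to 132 FPKM over the 16 libraries, and from 69.0 to 109 FPKM on high fat against 57.9 to 92.4 on ordinary feed. Of 7 Kupffer cell and macrophage markers 1 had one, at Csf1r, at 0.0647 to 0.125 FPKM on high fat, 0.111 to 3.31 on ordinary feed, 0.124 to 3.89 with resveratrol and 0.121 to 3.20 with metformin. Of 8 stellate cell markers 1 had one, in an intron of Reln, at 0.336 to 1.93 FPKM over all libraries. None of 6 endothelial, 6 bile duct and 6 lymphocyte markers had a tested transcript, though the lymphocyte symbol Trac matched no coding gene and was not searched. The part of cell composition in the member values was not tested.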

How the data were processed

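Per the labels' protocols, total RNA of frozen liver was taken up in Trizol and made into Illumina TruSeq libraries. The deposited values are FPKM per listed transcript, 1 file per library, made by the authors. Bowtie 0.12.2, Cufflinks 2.1.1 and GRCm38 are named in the submitters' processing notes. For the annotation used, counting by strand and filtering, the sources used here say nothing.

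FPKM were summed over the transcripts of each Ensembl gene and other transcripts kept as they are (49988 features). Features with at least 1 FPKM in at least 4 libraries (7413) were tested on log2(FPKM + 1) with limma 3.58.1 (R 4.3.3), with a mean-variance trend, all 4 groups in 1 fit with 12 residual degrees of freedom, and Benjamini-Hochberg adjustment. The fit was tested on simulated data that held no library like high-fat library 4, so that test does not bear on results that turn on this library. The transcript below the filter was compared with exact permutation tests of FPKM (SciPy 1.17.1). Multiplied by length, the FPKM of each library came in whole steps (within 0.05 of a step), each taken as 1 read, which gave reads and library totals. Replicates are numbered in sample order. Nothing but the sample labels shows them to be separate animals, and p-values measure only the spread between these libraries. The number of libraries and the reads limit precision.

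Named features were the members, called members of 4 pathway lists, tested features within 100 kb, and the 4 features most like each main member transcript. Outside this rule, Ebp, Acat2, Slc27a5 and Scp2 are named though not called, and Osbpl8 though called only without high-fat library 4. Members and lists were chosen with earlier results of these data known. Alternatives were other pseudocounts, filters, scalings and sample sets. Values of a few list and similar features are not reported here.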

Additional observations from a re-analysis of the deposited data

Results flagged for a closer look

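Of the 16 sets of 4 libraries (4 transcripts in 4 groups), 1 held a library far from the others by Dixon's 95% limit, a limit that chance passes in about 1 of 20 such sets. In the high-fat group the Sc5d transcript NONMMUT068756.2 stood at 0.0641 FPKM in library 4, and the gap to the next library was 0.860 of the group's whole range, above that limit. In the same library the other members stood at 17.8 FPKM (main Stard4 transcript), 0.423 FPKM (second Stard4 transcript) and 0.0983 FPKM (Msmo1), none of them past that limit.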

How the results depend on the processing

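No paired analysis was possible because the labels give no replicate numbers. The 3 tested transcripts in 6 comparisons gave 18 results and 291 alternative values, of which 268 kept their direction and their side of the threshold. The Stard4 change on high-fat against ordinary feed was called in all 16 of its alternatives (1.23 to 1.57). The other Stard4 call, metformin against ordinary feed, was lost without a filter, where more features are tested (1.30, limma adjusted p = 0.0880), and with only these 2 groups fitted, where fewer libraries give the spread (1.30, limma adjusted p = 0.0527), and it ran from 1.16 to 1.43 as libraries were left out in turn. Metformin against high fat at Stard4, near 0 throughout, was 0.0037 with quantile normalization and -0.14 to 0.12 as libraries were left out.

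At Sc5d the sign turned in each high-fat comparison when high-fat library 4 (0.0641 FPKM) was left out. High fat against ordinary feed ran from -0.77 to 0.74 as libraries were left out, and was a called 0.88 with median-ratio scaling without that library. Resveratrol against high fat ran from -0.17 to 1.34 and metformin against high fat from -0.064 to 1.45, and with that scaling without library 4 they were -0.26 and -0.050, not called. Left out of the shared spread, an alternative chosen after the data were seen, that library gave a called 0.68 for metformin against ordinary feed. Median-ratio scaling without it also brought calls against ordinary feed with metformin at Sc5d (0.83) and Msmo1 (1.02) and with resveratrol at Stard4 (0.85) and Sc5d (0.62); the cause was not tested. The Msmo1 transcript did not pass the stricter filter of 8 libraries. Its few reads limit what these data can show.

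Counts of called features moved with the setting. For high fat against ordinary feed the count was 1085, and 274 to 1181 under the alternatives. It was 6 (1 to 57) for resveratrol and 2 (1 to 10) for metformin against high fat, 21 (1 to 61) and 22 (2 to 260) for these drugs against ordinary feed, and 0 (0 to 2) between the drugs, where 471 features had an unadjusted p under 0.05.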
